A study of Bos taurus with 8 samples.

Results

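The insulin-like growth factor (IGF) system was followed at the RNA level in the rumen, the large fermentation chamber of the bovine stomach, through 10 genes taken by symbol from a deposited count table of 33132 genes. They comprise the ligands IGF1 and IGF2, the receptors IGF1R and IGF2R, and the binding proteins IGFBP2, IGFBP3, IGFBP4, IGFBP5, IGFBP6 and IGFBP7. All 10 were found in the table and all 10 passed the filter on low counts. RNA came from bulk rumen tissue of 4 adult steers and 4 newborn calves, 1 library per animal. A steer is a castrated male, the calves are labelled male, and all animals were of angus cross breeding. Whether the calves were castrated is not stated, so an effect of age and one of castration cannot be told apart. The labels give no treatment, diet, age in days or batch. The comparison asks how this growth factor system differs between the grown and the newborn organ.

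IGF1 and IGF2 are small secreted proteins related to insulin. Both activate the receptor tyrosine kinase IGF1R, which drives growth and survival through the PI3K and AKT pathway, whereas IGF2R, also the cation-independent mannose 6-phosphate receptor, takes up IGF2 and delivers it to lysosomes. The binding proteins hold the ligands in blood and in the matrix, and can limit or prolong their action. IGF2 is the main IGF of fetal tissue in mammals and is expressed from the paternal allele, while much of the circulating IGF1 after birth is made in liver under growth hormone.

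In steers, 6 of the 10 genes fell and 1 rose. IGF2 and IGFBP2 fell most, by 13.02-fold and 94.9-fold, IGFBP6 fell 5.68-fold, and IGF1, IGFBP3 and IGFBP7 fell 2.71-fold, 3.12-fold and 2.31-fold. IGFBP5 rose 2.26-fold. IGF1R, IGF2R and IGFBP4 did not pass the test. A call means that edgeR's quasi-likelihood test, run over 16326 genes, gave a p below 0.05 after Benjamini-Hochberg adjustment. Of all genes tested, 16.9% were called, 7.7% as higher and 9.16% as lower in steers. The median log2 fold change was -1.32 over the 10 genes and 0.04 over all genes tested. The levels of the animals, in counts relative to the TMM-scaled library size (CPM, the usual per-library abundance unit), did not overlap between the groups for the same 7 called genes, against 23.3% of all genes tested. With scaling by library size alone, 34.9% of all calls were higher in steers instead of 45.7%, and the median of all genes moved by -0.11, but no IGF gene changed direction or call.

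**Figure D1:**
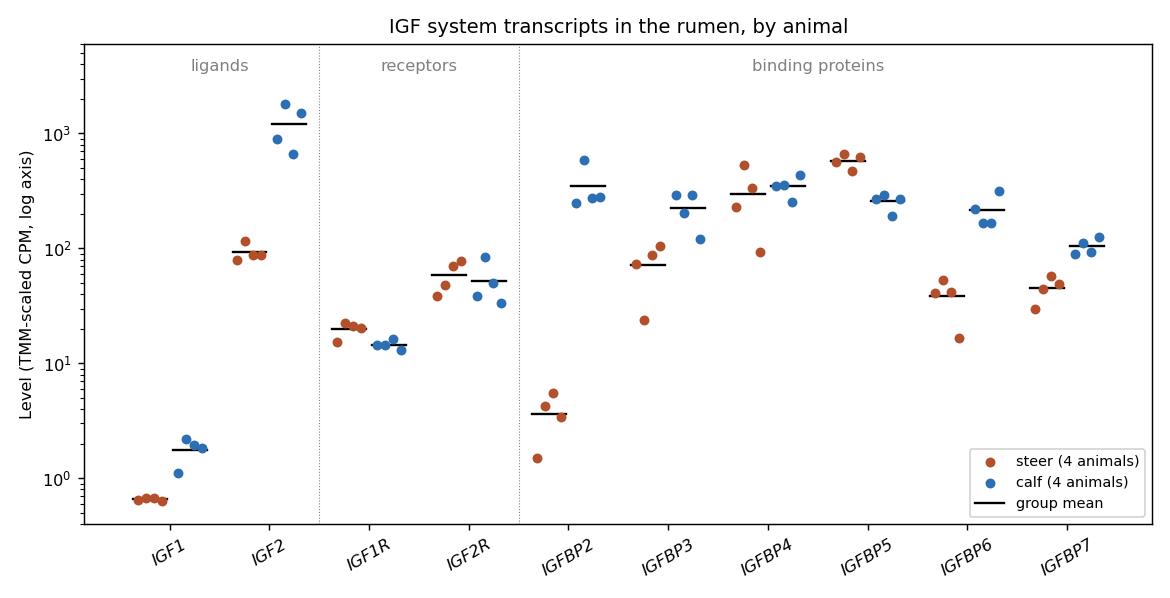
Level of each of the 10 IGF system genes in TMM-scaled CPM on a log axis, with each steer and each calf as a point (4 animals per group) and the group mean as a bar. The points of the groups separate for IGF1, IGF2, IGFBP2, IGFBP3, IGFBP5, IGFBP6 and IGFBP7, and IGFBP5 is the gene whose steers lie above the calves.

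Libraries held 42322022 to 54449684 counts. Log2 CPM correlated across genes at 0.907 to 0.962 between steers, 0.941 to 0.966 between calves and 0.846 to 0.891 between the groups. Tissue identity was checked with squamous epithelium markers, whose summed level was 10040 to 16410 CPM in steers and 12970 to 18160 CPM in calves. Of its 7 tested markers 1 rose and 1 fell. KRT14, a basal keratin, was at 2587 ± 516 CPM in steers and 803 ± 502 CPM in calves (edgeR adjusted p = 0.0216). COL17A1, a hemidesmosome collagen, was at 357 ± 75 CPM in steers and 1237 ± 271 CPM in calves (edgeR adjusted p = 0.00227). DSG3 could not be counted because its whole span is shared with another gene. Counts are per bulk sample, so fewer cells of a type and less RNA per cell cannot be told apart in any result below.

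IGF2 lies on chromosome 29 from 49395153 to 49422469 on the plus strand. This position and those that follow are the ones in the deposited table, and no source used here names its build. It had 80.0, 116.4, 88.3 and 88.0 CPM in steers 1 to 4, against 897, 1795, 662 and 1498 CPM in calves 1 to 4. The lowest calf was thus above the highest steer, and calves 2 and 4 stood above calves 1 and 3. Means were 93.2 ± 16.0 CPM in steers and 1213 ± 524 CPM in calves (SD, n = 4 each). IGF2 thus had a log2 fold change, steer over calf, of -3.70 ± 0.37 (SE, edgeR adjusted p = 0.000325). It ranged from -3.91 to -3.45 when 1 animal was left out.

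IGF1 (chromosome 5, 66185922 to 66264134, minus strand) was a rare transcript in both groups. It had 0.650, 0.668, 0.671 and 0.631 CPM in steers 1 to 4, against 1.12, 2.21, 1.94 and 1.84 CPM in calves 1 to 4. Every steer lay below every calf, with calf 1 the lowest of the calves. Since each pair adds 1 count per mate, these values rest on 12 to 18 read pairs in each steer and 24 to 66 in each calf. The steers' coefficient of variation of 2.79% is smaller than the 25.6% that counting alone gives at this depth, so it does not measure how alike the steers were. For IGF1 the log2 fold change was -1.44 ± 0.36 (edgeR adjusted p = 0.023). Leaving out steer 1, steer 3, or any calf but calf 1 ended the call, at adjusted p-values from 0.0529 to 0.0607 and log2 fold changes from -1.45 to -1.32.

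The ratio of IGF2 to IGF1 was 123, 174, 132 and 139 in steers 1 to 4 and 802, 813, 342 and 814 in calves 1 to 4. Gene length cancels when such a ratio is compared between animals, and here the groups did not overlap. The median ratio was 135.6 in steers and 808 in calves. For IGF1, counting alone gives a coefficient of variation of 25.6% in steers and 14.9% in calves. How alike the ratios are within a group is therefore uncertain.

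Neither receptor was called by edgeR, DESeq2 or limma-voom, and 1 of the 2, IGF1R, had an unadjusted p below 0.05 in edgeR. IGF1R (chromosome 21, 7780293 to 8080968, plus strand) had 15.3, 22.3, 21.3 and 20.4 CPM in steers and 14.4, 14.5, 16.2 and 13.2 CPM in calves. All steers but steer 1 lay above all calves, and steer 1 lay within the range of the calves. Its log2 fold change was 0.44 ± 0.19 (edgeR adjusted p = 0.147), and 11.5% of the counted span is shared with other genes. IGF2R (chromosome 9, 96197493 to 96300019, plus strand) had 38.4, 48.3, 70.7 and 78.0 CPM in steers and 38.9, 84.2, 50.0 and 33.8 CPM in calves. The groups overlapped throughout, with calf 2 highest and calf 4 lowest of all 8 animals. The log2 fold change of IGF2R was 0.19 ± 0.33 (edgeR adjusted p = 0.75). Without calf 2 it was 0.52 and without steer 4 it was 0.02. AIRN, the non-coding RNA that in mouse is transcribed across the Igf2r locus and silences the paternal allele, shares 0.87% of the IGF2R span. The counted span of AIRN lies wholly (100%) within IGF2R, reads in more than 1 gene were dropped, and AIRN is listed at 0 in every library.

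IGF2 counts relative to those of its clearance receptor were 2.09, 2.41, 1.25 and 1.13 in steers, against 23.1, 21.3, 13.3 and 44.3 in calves. No steer came near the lowest calf in this ratio of CPM. As IGF2R itself was not called, the ratio mainly restates the IGF2 difference.

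**Figure D2:**
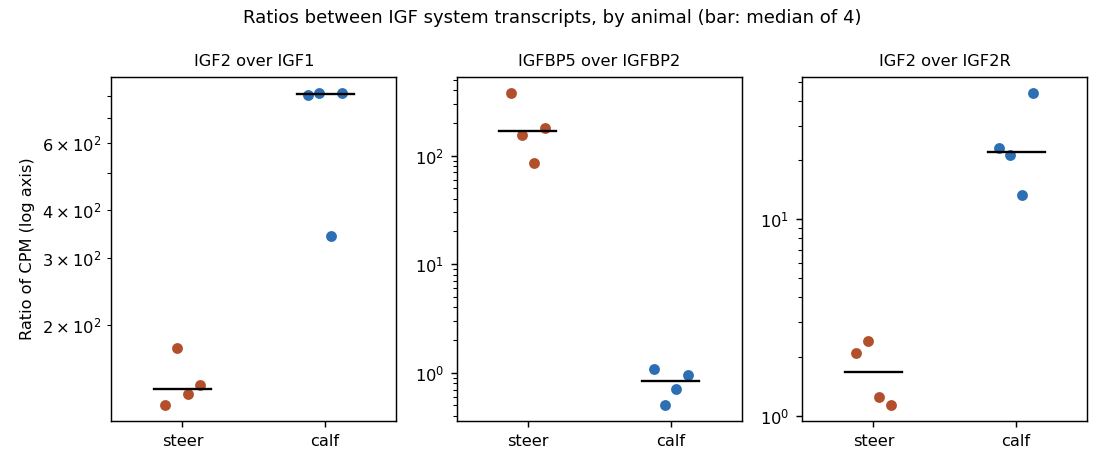
Ratio of CPM between pairs of IGF system genes in each animal on log axes, steers at the left and calves at the right of each panel, with the median of 4 animals as a bar. In all 3 panels the groups do not overlap: IGF2 over IGF1 and IGF2 over IGF2R are lower in steers, and IGFBP5 over IGFBP2 is higher. For IGFBP5 over IGFBP2 this follows from the levels of both genes, which separate in opposite directions. IGF2 over IGF2R mainly restates the IGF2 difference.

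Among the 6 binding proteins, 4 fell, 1 rose and 1 did not pass the test. IGFBP2, a carrier abundant in fetal tissues and fluids, lies on chromosome 2 from 104619962 to 104648632 on the plus strand. It had 1.5, 4.23, 5.48 and 3.44 CPM in steers, against 250, 586, 273 and 283 CPM in calves. Steers held 60 to 294 counts, so the low level was measured well above 0, and calf 2 stood well above the other calves. The log2 fold change of IGFBP2 was -6.57 ± 0.51 (edgeR adjusted p = 0.000114). It ranged from -6.83 to -6.20 with 1 animal left out.

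IGFBP5, which binds the matrix as well as IGFs, starts 7542 bases beyond the end of IGFBP2 (chromosome 2, 104656175 to 104680027) and is read from the opposite strand. It had 569, 661, 468 and 620 CPM in steers, against 271, 294, 192 and 271 CPM in calves. These adjacent genes therefore moved in opposite directions, and for each of them the groups did not overlap. The log2 fold change of IGFBP5 was 1.17 ± 0.23 (edgeR adjusted p = 0.00793), between 1.05 and 1.27 with 1 animal left out. The ratio of IGFBP5 to IGFBP2 was 379, 156.2, 85.4 and 180.4 in steers and 1.08, 0.501, 0.701 and 0.959 in calves. That the ratio separates the groups follows from the levels of both genes and is no further result.

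IGFBP6, which binds IGF2 more tightly than IGF1, lies on chromosome 5 (26878961 to 26883026, minus strand). It had 40.8, 53.5, 42.04 and 16.7 CPM in steers, against 220.4, 168, 165 and 316.5 CPM in calves. All steers were below all calves, and steer 4 was the lowest. IGFBP6 had a log2 fold change of -2.51 ± 0.37 (edgeR adjusted p = 0.0023). IGFBP7, a relative with low affinity for IGFs that is also a protein of the vessel wall, lies on chromosome 6 (72405517 to 72485427, minus strand). It had 29.9, 44.2, 58.1 and 48.8 CPM in steers, against 89.6, 111.5, 93.1 and 124.5 CPM in calves. Again no animal of one group reached the other, and its log2 fold change was -1.21 ± 0.23 (edgeR adjusted p = 0.00766).

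IGFBP3, the main carrier of IGFs in serum, lies on chromosome 4 (76116379 to 76124833, plus strand). It had 72.5, 23.8, 87.6 and 105.6 CPM in steers, against 290, 201.5, 289.4 and 121.8 CPM in calves. The groups did not overlap, but steer 4 and calf 4 lay close together. IGFBP3 had a log2 fold change of -1.64 ± 0.44 (edgeR adjusted p = 0.0318). Leaving out steer 1, steer 3, or any calf but calf 4 ended the call, at adjusted p-values from 0.0505 to 0.0851 and log2 fold changes from -1.74 to -1.49.

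IGFBP4, which mostly holds IGFs back and is cut by the protease PAPPA, lies on chromosome 19 (40672669 to 40684257, plus strand). It had 230, 533, 338.5 and 93.2 CPM in steers, against 352, 355, 254.5 and 432 CPM in calves. Steers spread on both sides of the calves, with steer 2 above and steer 4 below all of them. Its log2 fold change was -0.22 ± 0.45 (edgeR adjusted p = 0.782), and 0.08 without steer 4.

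**Figure D3:**
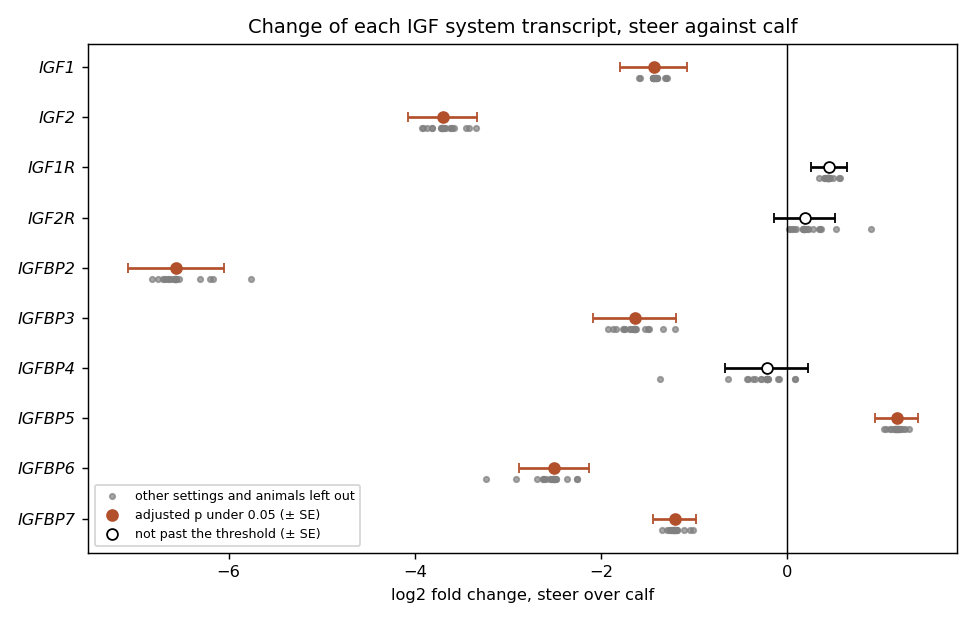
Log2 fold change, steer over calf, of each of the 10 IGF system genes with its SE (bars, 4 animals per group), filled where the adjusted p was under 0.05, and below each the values under other settings and with animals left out (grey). IGFBP2 and IGF2 lie farthest to the left at -6.57 and -3.70, IGFBP5 alone is filled to the right of 0 at 1.17, and the grey points of IGFBP4 lie on both sides of 0.

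The make-up of the binding protein counts differed between the groups. IGFBP2 took 0.159% to 0.548% of the counts of the 6 binding protein genes in steers and 16.98% to 34.2% in calves, without correction for gene length. IGFBP5 took 46.8% to 69.8% in steers and 15.1% to 18.4% in calves. The share of IGFBP6 was 1.88% to 4.32% in steers and 9.79% to 20.4% in calves, and that of IGFBP7 was 3.16% to 5.81% in steers and 6.08% to 8.04% in calves. The shares of IGFBP3 (1.81% to 11.9% in steers, 7.87% to 22.9% in calves) and IGFBP4 (10.5% to 40.4% in steers, 20.1% to 27.9% in calves) overlapped. Summed over the 6 genes, the level was 1038 ± 194 CPM in steers and 1501 ± 186 CPM in calves (SD, n = 4 each). Steer 2, at 1320 CPM, was above calf 3, at 1267 CPM, so the sums overlapped.

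**Figure D4:**
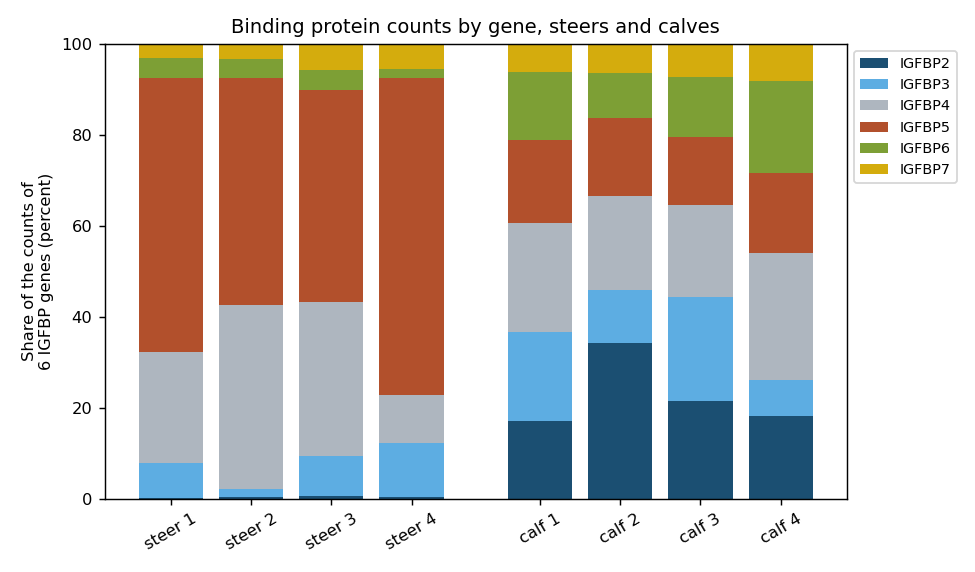
Percent of the summed counts of the 6 binding protein genes that each gene took, with 1 stacked bar per animal, the 4 steers at the left and the 4 calves at the right. The IGFBP2 segment fills 16.98% to 34.2% of each calf bar and is barely visible in the steers, where it is at most 0.548%, while the IGFBP5 segment is 46.8% to 69.8% in steers and 15.1% to 18.4% in calves.

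Levels of different genes were set side by side as CPM per kilobase of counted span. The span includes introns, which carry few reads of mature RNA, so genes with long introns such as IGF1, IGF1R, IGF2R and IGFBP7 come out low on this scale. In steers the order ran from IGFBP4 (25.8 CPM per kilobase) through IGFBP5 (24.3), IGFBP6 (9.41), IGFBP3 (8.56), IGF2 (3.41), IGF2R (0.574), IGFBP7 (0.566), IGFBP2 (0.128) and IGF1R (0.0659) to IGF1 (0.00837). In calves it ran from IGFBP6 (53.5 CPM per kilobase) through IGF2 (44.4), IGFBP4 (30.1), IGFBP3 (26.7), IGFBP2 (12.1), IGFBP5 (10.8), IGFBP7 (1.31), IGF2R (0.505) and IGF1R (0.0485) to IGF1 (0.0227). IGF1 was thus last in both groups. On this scale IGF2 stood below the 4 binding proteins IGFBP4, IGFBP5, IGFBP6 and IGFBP3 in steers and below IGFBP6 alone in calves. That place depends on the span, which is 27317 bases for IGF2 against 4066 for IGFBP6 and 8455 for IGFBP3. By CPM alone, IGF2 was above IGFBP6 in calves (1213 against 217 CPM). In steers IGF2 was above IGFBP3 and IGFBP6 (93.2 against 72.4 and 38.3 CPM), and below IGFBP4 and IGFBP5 (298.7 and 579.5 CPM). Some neighbours differed by less than the SD between animals of either gene on the per-kilobase scale. In steers these were IGFBP4 and IGFBP5, IGFBP6 and IGFBP3, and IGF2R and IGFBP7. In calves they were IGFBP6 and IGF2, IGFBP4 and IGFBP3, and IGFBP2 and IGFBP5.

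Some markers of other cell types were called too, where 16.9% of all genes tested were called. Of 8 fibroblast markers none rose and 3 fell (COL1A1, COL1A2 and DCN), and their summed level was 623 to 1431 CPM in steers and 1702 to 4910 CPM in calves, with no marker at 0. Most of that sum was collagen, with COL1A1, COL3A1 and COL1A2 at means of 1197, 897 and 592 CPM in calves. Among markers without a call, log2 fold changes were positive for PDGFRA (0.42) and FBLN1 (0.09). They were negative for COL3A1 (-0.68), PDGFRB (-0.915) and LUM (-0.15). Of 6 endothelial markers 1 fell (PECAM1), a share near that of all genes tested. Their sums were 250 to 289 CPM in steers and 302 to 729 CPM in calves. Of 10 smooth muscle markers, 9 of them tested, 4 rose (DES, CNN1, MYH11 and LMOD1) and 1 fell (ACTA2), and the sums overlapped, at 10940 to 109300 CPM in steers and 6376 to 18590 CPM in calves. A fit added after these sums were seen took the mean log2 CPM of the 8 fibroblast markers, which is not their sum, as a covariate. With it IGF2 had a log2 fold change of -3.35 (edgeR adjusted p = 0.00274), IGFBP2 of -5.76 (0.000444), IGFBP6 of -2.92 (0.00708), IGFBP7 of -1.02 (0.0435) and IGFBP5 of 1.302 (0.0189). In that fit IGF2R passed as higher in steers, at 0.90 (adjusted p = 0.0446), whereas IGF1 (0.0957) and IGFBP3 (0.123) did not pass. Of 5 leukocyte markers 3 rose (PTPRC, CD3E and CSF1R), while their sums overlapped, at 203 to 405 CPM in steers and 75.97 to 458 CPM in calves. Of 5 adipocyte markers, 4 of them tested, 1 fell (ADIPOQ), with sums of 27.5 to 434 CPM in steers and 4.68 to 501 CPM in calves. As 3 of the fibroblast markers were themselves called, the fibroblast covariate cannot tell fewer fibroblasts from less marker RNA per cell. The part of any of these cell types in the results was not tested.

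Among steers, IGFBP4 and IGFBP6 had their extremes in the same animals as the smooth muscle markers. The smooth muscle marker sum was 56450, 109300, 51990 and 10940 CPM in steers 1 to 4. Steer 2 was highest and steer 4 lowest in the sum, in IGFBP4 and in IGFBP6. In calves the sum was 18590, 14090, 6376 and 13750 CPM. Calf 3 was lowest in the sum and in both genes, but the sum was highest in calf 1 and both genes in calf 4. IGFBP3 ran the other way in steers, being lowest in steer 2 and highest in steer 4. With the smooth muscle marker mean as a covariate, IGFBP4 passed as lower in steers with a log2 fold change of -1.37 ± 0.30 (edgeR adjusted p = 0.016). In the same fit IGFBP3 was at -1.21 (0.107) and IGF1 at -1.41 (0.0716), and neither passed, while IGF2, IGFBP2, IGFBP5, IGFBP6 and IGFBP7 did. There IGFBP6 was at -3.24, against -2.51 without the covariate.

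Of 80 further IGF pathway genes in 5 lists, 79 were in the table and 70 were tested, of which 2 rose and 9 fell. Taken over both directions, this share is near the 16.9% of all genes tested that were called. By direction, the part that rose was below the 7.7% of all genes tested, and the part that fell was above the 9.16%. The median log2 fold change of the 70 genes was -0.08, near that of all genes tested. The count that rose was 1 without calf 3, calf 4, steer 2 or steer 3, and 4 without calf 2.

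Of the 9 that fell, 5 belong to the list of IGF2 RNA and locus regulators, with 9 tested members and a median log2 fold change of -2.06. H19, the imprinted non-coding RNA beside IGF2 (chromosome 29, 49510998 to 49513370), had 4.93, 4.57, 8.34 and 17.9 CPM in steers, against 720, 1946, 476.5 and 1011 CPM in calves. Its calves stood in the same order as for IGF2, with calf 2 highest and calf 3 lowest. The log2 fold change of H19 was -6.86 ± 0.69 (edgeR adjusted p = 0.000332). The RNA-binding proteins IGF2BP2 and IGF2BP3, which bind IGF2 messenger RNA, had log2 fold changes of -2.06 ± 0.37 and -6.06 ± 0.44, with means of 10.0 and 0.231 CPM in steers and 41.98 and 16.0 CPM in calves. IGF2BP1 and PLAG1, a transcription factor known to activate IGF2, were the other members that fell. The insulator protein CTCF, which binds between IGF2 and H19, was at 55.8 ± 10.3 CPM in steers and 56.9 ± 8.2 CPM in calves (edgeR adjusted p = 0.944).

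Of 8 tested extracellular regulators 3 fell, where 9.16% of all genes tested fell, and the median log2 fold change was -1.25. IGFALS, the acid-labile subunit that joins IGFBP3 and IGF in serum, was at 1.502 ± 0.830 CPM in steers and 4.54 ± 1.93 CPM in calves. The proteases PAPPA2 and ADAM12, which cut IGF binding proteins, were at 0.0943 ± 0.0671 and 0.187 ± 0.121 CPM in steers and at 0.642 ± 0.319 and 1.22 ± 0.49 CPM in calves. All are rare transcripts, and the IGFALS levels of the groups overlapped. The IGFALS call was lost when any animal but calf 2 or steer 2 was left out, the PAPPA2 call without calf 1, calf 2, steer 1 or steer 2, and the ADAM12 call without calf 1. In those fits the log2 fold changes were -1.61 to -1.29 for IGFALS, -2.74 to -2.45 for PAPPA2 and -2.47 for ADAM12. The protease HTRA1 was at 201 ± 75 CPM in steers and 315.5 ± 56.2 CPM in calves (edgeR adjusted p = 0.157). With the smooth muscle covariate HTRA1 was called lower in steers, at -1.10 (edgeR adjusted p = 0.032).

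In the insulin and growth hormone list 1 of 10 tested genes rose and 1 fell, a share near the 16.9% of all genes tested that were called. PRLR, the prolactin receptor, had 45.3, 39.8, 53.5 and 50.2 CPM in steers, against 12.2, 22.5, 8.71 and 19.03 CPM in calves, and a log2 fold change of 1.60 ± 0.30 (edgeR adjusted p = 0.00626). CISH, a feedback inhibitor induced by STAT5, had 13.02, 9.91, 11.9 and 10.8 CPM in steers, against 26.1, 29.3, 34.7 and 31.3 CPM in calves (-1.41 ± 0.19, adjusted p = 0.00122). The groups did not overlap for either gene. The insulin receptor INSR was at 47.0 ± 5.4 CPM in steers and 38.4 ± 6.7 CPM in calves (edgeR adjusted p = 0.322).

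Of the 14 tested receptor substrates and adaptors 0 were called by edgeR, 1 by DESeq2 and 0 by limma-voom, and 2 had an unadjusted p below 0.05 in edgeR. SH2B1, an adaptor of the insulin and IGF receptors, was at 93.2 ± 4.4 CPM in steers and 86.7 ± 6.4 CPM in calves (edgeR adjusted p = 0.706). Of 29 tested genes of the PI3K, AKT, mTOR and FOXO list 1 rose. For both lists the share called by edgeR was below the 16.9% of all genes tested. FOXO4, a transcription factor that AKT restrains, was at 37.3 ± 13.5 CPM in steers and 17.1 ± 3.5 CPM in calves (1.13 ± 0.29, edgeR adjusted p = 0.0249). Its call ended without calf 3, calf 4, steer 2 or steer 3 (0.93 to 1.13), and its log2 fold change was 0.59, without a call, with the smooth muscle covariate. The kinase AKT1 was at 251 ± 38 CPM in steers and 356 ± 24 CPM in calves (-0.50 ± 0.20, edgeR adjusted p = 0.114), and the groups did not overlap. AKT1 was called lower by DESeq2 (adjusted p = 0.0387) and by edgeR with library size scaling (adjusted p = 0.0354). DESeq2 called 4 genes of this list in all.

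**Figure D5:**
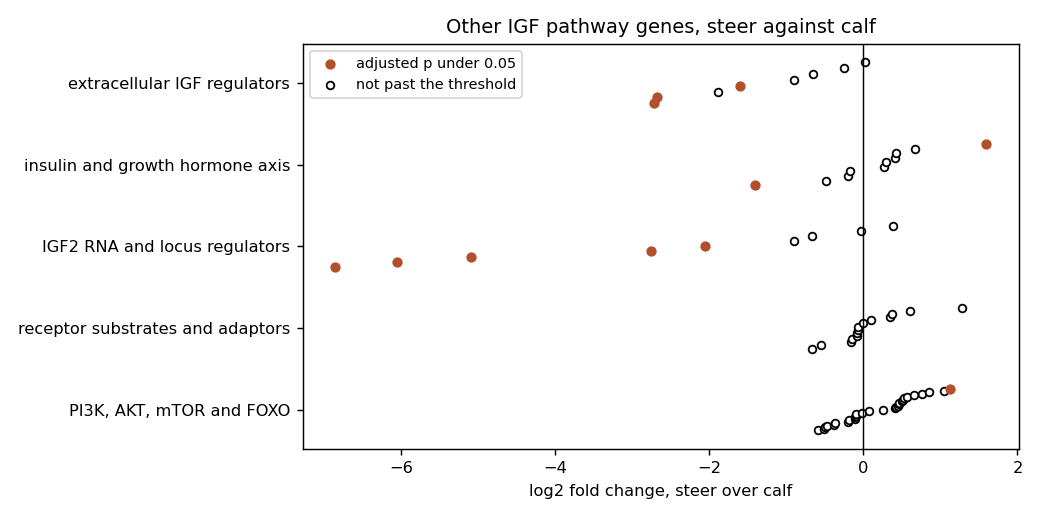
Log2 fold change, steer over calf, of each tested gene in 5 lists of other IGF pathway genes, filled where the adjusted p was under 0.05. The 5 filled points of the IGF2 RNA and locus list lie between -6.86 and -2.06, while none of the 14 receptor substrates and adaptors is filled and 1 of 29 genes of the PI3K list is.

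Genes with the most similar profile were sought among tested genes with a mean of at least 10 CPM, by the root mean square difference between log2 CPM profiles over the 8 libraries, each centred on its own mean. The microfibril genes FBN2 and MFAP2 and the gene TTC39A came nearest to IGF2, at differences of 0.28, 0.40 and 0.37 on the log2 scale. FBN2 had 1.38, 2.62, 2.27 and 2.23 CPM in steers, against 29.9, 39.9, 20.1 and 31.5 CPM in calves. CISH, HSPA12B and PTK7 came nearest to IGF1 (0.23, 0.23 and 0.25). In steers IGF1 rests on 12 to 18 read pairs, where counting alone gives a coefficient of variation of 25.6%. Which genes come nearest to IGF1 is therefore uncertain. DLK1, an imprinted gene of fetal tissue, H19 and the simple epithelial keratin KRT7 came nearest to IGFBP2 (0.57, 0.70 and 0.80). TNIK and the mitochondrial genes CYTB and COX3 came nearest to IGFBP5 (0.15, 0.18 and 0.20). The measure takes in both the difference between steers and calves and the differences within each group.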

How the data were processed

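Per the labels' protocols, total RNA was copied with random hexamers, a dUTP second strand and 10 PCR cycles, and sequenced as pairs. The submitters' processing notes name Trimmomatic 0.39, STAR 2.7.11a, featureCounts 2.0.2 and DESeq2 1.42.0. The deposited values are raw counts per gene name. Per the file headers, the authors counted over whole transcript spans, so intron reads count. No strand option was set, so a gene and its antisense partner cannot be told apart, and both mates of a pair were counted (86.9% to 89.0% of counts from 1 to 10 were even). Reads in more than 1 gene were dropped.

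The steer libraries were set against the calf libraries with edgeR 4.0.16 under R 4.3.3, using filterByExpr, TMM scaling and robust quasi-likelihood F tests, adjusted by Benjamini-Hochberg over 16326 genes at a threshold of 0.05. The procedure was tested on counts simulated from edgeR's own model of these data, with fewer changed genes than were called here. That simulation therefore does not show how the procedure behaves on the real counts. SE was taken as the size of the log2 fold change over the root of its F. Group values are means ± SD of CPM over 4 animals. The p-values rest on variation between animals, with dispersions moderated over all genes, and not on the printed SD. No libraries were repeats of each other (chi-square per degree of freedom at least 105). Chromosome numbers come from a RefSeq table of ARS-UCD2.0, which held all 10 symbols. Alternatives were 3 scalings, 2 filters, no robust dispersion, DESeq2 1.42.0, limma-voom (limma 3.58.1), a replicate block, counts halved to pairs, 2 covariates and libraries left out. The fibroblast covariate was chosen after seeing the data. The members and lists were chosen with earlier results of these data known. Named pathway genes were, in each list, up to 3 called genes per direction and the most abundant gene without a call. The 3 nearest profiles were named for 4 of the genes. IGF2BP1, PLAG1, the marker genes and AIRN were named outside this rule, after their values were seen. One further marker list is not reported here.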

Additional observations from a re-analysis of the deposited data

Results flagged for a closer look

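Among 100 groups of 4 values 6 had 1 animal far from the other 3, by Dixon's criterion, where chance gives about 1 in 20. In calves, IGFBP2 reached 586.3 CPM in calf 2 against 250 to 283 CPM in the others, and DLK1 reached 125.2 CPM in the same calf. The ratio of IGF2 to IGF1 was 341.9 in calf 3 and 802 to 814 in the other calves. IGF1 in calves rests on 24 to 66 read pairs, where counting alone gives a coefficient of variation of 14.9%. The other calves lie closer together than that, so this flag is uncertain. In steers, the IGFBP6 share of binding protein counts was 1.88% in steer 4 and 4.05% to 4.32% in the others. IGF2BP3 was at 0.0557 CPM in steer 2 and at 0.275 to 0.316 CPM in the other steers. These levels rest on 2 counts in steer 2 and 11 to 18 in the others, with both mates counted, so this flag is near the floor. The endothelial marker sum was 250.0 CPM in steer 2 and 284 to 289 CPM in the others. No explanation of these values was tested.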

How the results depend on the processing

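Of 21 other settings, IGF2, IGFBP2, IGFBP5, IGFBP6 and IGFBP7 kept their direction and call in all, IGF1R, IGF2R and IGFBP4 kept no call in all but those named here, and IGF1 had no value with at least 5 CPM in 4 libraries. With 1 library left out, the log2 fold change ranged from -1.596 to -1.317 for IGF1, -1.876 to -1.339 for IGFBP3, -0.643 to 0.0788 for IGFBP4 (its sign turned without steer 4) and -0.129 to 0.0898 for CTCF (positive without calf 1, calf 2 or steer 1). Genes called higher then numbered 705 (without calf 1) to 1473, with 804 without calf 4, against 1257, and pathway genes called higher 1 to 4, against 2. With library size scaling, 835 genes and 1 pathway gene were higher. The filter of 5 CPM left 822 higher, 926 lower and 5 pathway genes lower. DESeq2 called 1944 higher, 4 of them pathway genes. With the smooth muscle covariate 4 pathway genes were higher, and log2 fold changes were -1.407 for IGF1 and -1.209 for IGFBP3 (no call), -1.367 for IGFBP4 (called) and 0.0423 for CTCF. Without calf 2 and steer 4, 5 pathway genes were higher, IGF1 was at -1.296 (no call) and IGFBP4 at 0.0860. With the fibroblast covariate 811 genes were higher, with 4 pathway genes and 2 IGF genes (IGFBP5 and IGF2R, at 0.903), and IGF1 at -1.308 and IGFBP3 at -1.529 lost their calls, while CTCF was at 0.243. Where not given by fewer samples or genes, the cause was not tested.

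No label says that the replicate numbers in the titles pair the animals. Deviations of same-numbered steers and calves correlated at 0.199, 0.0826, -0.0953 and -0.266, and calf 1 was the only one to correlate best with its own number. Such low correlations cannot decide whether same-numbered animals were handled together. With the replicate block 785 genes were higher and 1046 lower, with 5 pathway genes lower, and IGF1 (-1.397) and IGFBP3 (-1.764) had adjusted p-values of 0.0851 and 0.053. Depth limits IGF1, PAPPA2, ADAM12, IGF2BP1 and, in steers, IGF2BP3.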

Other observations

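Of the 70 tested IGF pathway genes, 4 had all steers above all calves and 11 all steers below, a share near the 23.3% of all genes tested whose groups did not overlap. The genes named next did not pass the test and were picked out after their values were seen. FOXO1, a transcription factor that AKT restrains, was at 23.7 ± 1.3 CPM in steers and 33.9 ± 5.1 CPM in calves (edgeR adjusted p = 0.0704). PIK3R1, a regulatory subunit of PI3K, was at 44.4 ± 9.6 CPM in steers and 66.7 ± 10.1 CPM in calves (edgeR adjusted p = 0.0928). RHEB, which activates mTOR, was at 47.3 ± 6.5 CPM in steers and 35.4 ± 3.7 CPM in calves (edgeR adjusted p = 0.134), and the kinase JAK2 was at 12.5 ± 2.4 CPM in steers and 9.34 ± 1.17 CPM in calves (edgeR adjusted p = 0.218). The receptor substrate IRS2 was at 21.8 ± 9.0 CPM in steers and 8.96 ± 5.35 CPM in calves, with overlapping groups (edgeR adjusted p = 0.0735).

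The growth hormone receptor GHR was rare, at 0.688 ± 0.445 CPM in steers and 0.514 ± 0.353 CPM in calves, with 44.5% of its counted span shared with other genes. IGFBP1, the neighbour of IGFBP3 on chromosome 4, was too rare to test, at a mean of 0.00877 CPM in steers and 0.0189 CPM in calves. PIK3R2 and GRB7 could not be counted, since their whole spans are shared with other genes.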
